A study of Mus musculus with 23 samples.

Results

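GFI1 and GFI1B are closely related transcriptional repressors, and LSD1 (encoded by Kdm1a) and CoREST (encoded by Rcor1) are the chromatin proteins through which both are known to silence genes. The expression of Gfi1, Gfi1b, Kdm1a and Rcor1 was followed through 4 stages of blood cell development, with and without induction of the leukaemic fusion protein RUNX1-ETO. The genes were chosen by name, with earlier results of these data known. They were represented on the array by 5 probes whose RefSeq accession belonged to 1 of the 4 genes, and of the 2 Rcor1 probes the one with the higher mean intensity was used. They made up 4 of the 15202 genes tested, out of 20145 genes with a named probe on the array.

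GFI1 and GFI1B bind DNA through zinc fingers and carry a short SNAG domain at their N terminus that docks onto LSD1. LSD1, held by CoREST together with histone deacetylases, removes methyl groups from histone H3 and so takes an activating mark away from the bound gene. During the endothelial–haematopoietic transition (EHT), RUNX1 is known to activate Gfi1 and Gfi1b, and their products shut down endothelial genes as haemogenic endothelium turns into blood. Later, Gfi1 is best known from granulocytes, lymphocytes and stem cells and Gfi1b from erythroid cells and megakaryocytes.

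The cells came from a mouse embryonic stem (ES) cell line, labelled as strain C57BL/6, in which HA-tagged human RUNX1-ETO was driven by a tetracycline-responsive promoter and switched on with doxycycline (Dox) at 0.1 μg per ml. Endogenous Runx1 was wild type in all groups, and uninduced cells of the same line served as controls, so that every group rests on 1 inducible line. In blast culture, haemogenic endothelium (HE, sorted as KIT+Tie2+CD41-), the next stage that had gained CD41 (HE2) and floating CD41+KIT+Tie2- progenitors were sorted on day 2 after Dox had been added on day 1. Myeloid progenitors were progenitors placed in cytokine-containing expansion medium, given Dox from day 2 and collected on day 3, with an induction of 12 h. Each group had 3 arrays, except that progenitors had 2 uninduced and 2 induced ones, and 1 more uninduced progenitor array, labelled a technical replicate, took part in the normalization only. Induced myeloid progenitor array 3 is a biological replicate by its title and a technical replicate by its source name. The titles call the other arrays biological replicates without naming separate cultures, so that P values measure the spread between these arrays. Dox was started on day 1 for the early stages and on day 2 for the myeloid progenitors, and the hours of induction are given for the latter only, so that stage and timing of induction cannot be told apart.

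Between 48.8 and 78.4% of spots on an array were well above background. Uninduced and induced arrays of HE and HE2 were spread over slides 1 and 2 of 3. All myeloid progenitor arrays lay on slide 3, with 1 induced progenitor array and the technical replicate. Runx1t1, the mouse gene homologous to the ETO part of the fusion, rose with Dox by 2.08 in HE2, by 3.96 in progenitors and by 2.06 in the myeloid cells on the log2 scale, and in HE its difference was 1.24 (adjusted P = 0.0155), which was not called. How much of the human transcript this probe reads was not tested. Markers departed from the stage names in the last group: the mean log2 intensity of 7 erythroid genes was 15.57 to 16.01 on uninduced myeloid progenitor arrays against 11.71 to 11.89 in uninduced progenitors, that of 7 megakaryocyte genes 13.14 to 13.48 against 10.71 to 11.29, and that of 6 myeloid genes 10.48 to 10.85 against 10.88 to 11.35. All 7 erythroid and all 6 myeloid markers were well above background on every array of both groups, so that the cultured cells carried erythroid and megakaryocytic transcripts beside myeloid ones.

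All values below are log2 intensities after background correction and quantile normalization, and a difference of 1 is a 2-fold change. A probe's intensity depends on its sequence, so that levels were compared between groups for 1 gene and never between genes. A change was called where the unadjusted P of limma was at most 0.001 and the change at least 2-fold, which are the thresholds of the study, and the P values printed are adjusted over all 15202 genes after Benjamini and Hochberg. All 5 probes were well above background on all 23 arrays, so that none of the levels is a bound.

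**Figure D1:**
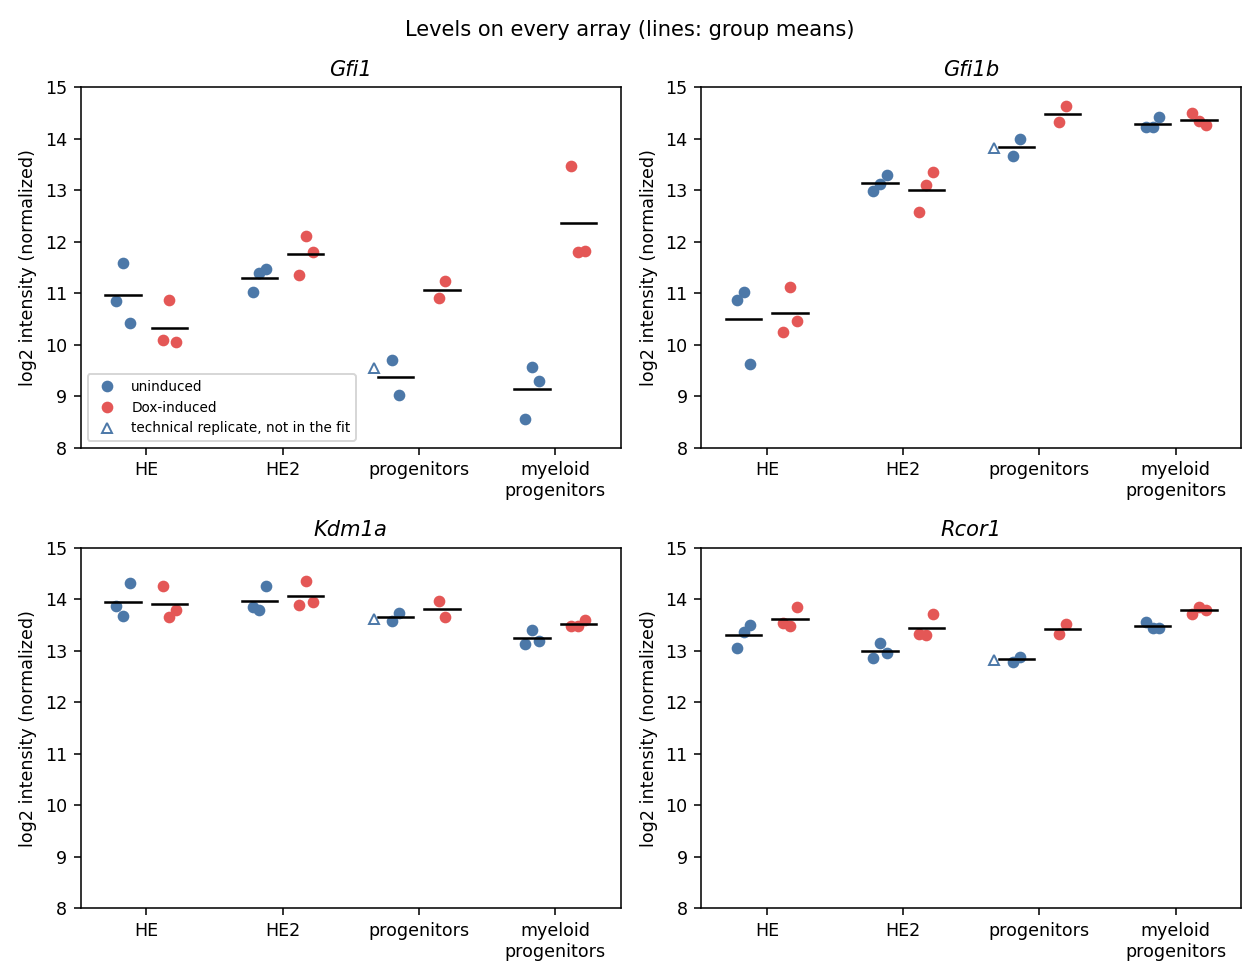
Log2 intensity of the 4 genes (y axis, 1 panel per gene, not comparable between panels) at the 4 stages (x axis), with 1 point per array, uninduced in blue and Dox-induced in red, a line at each group mean and an open triangle for the technical replicate. The Gfi1 groups separate in progenitors and myeloid progenitors, Gfi1b steps up between HE and HE2 with and without Dox, and the Kdm1a and Rcor1 group means stay within 13.2 to 14.1 and 12.8 to 13.8.

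Gfi1 was the only one of the 4 genes with a called response to Dox, and it was called in myeloid progenitors alone. Uninduced myeloid progenitor arrays read 8.57, 9.57 and 9.29, and induced ones 13.47, 11.80 and 11.83. The groups did not overlap, and induced array 1 lay above the other induced arrays by over 1.6. Gfi1 rose by 3.22 ± 0.41 (SE, 3 arrays against 3), or 9.34-fold, with an adjusted P of 2.36e-05. Without induced array 1, the rise was 2.67, and over all 6 fits that left out 1 array it ran from 2.67 to 3.51 and was called each time. All 6 arrays were on 1 slide, so that slide did not enter this comparison. In bulk RNA, a change in the number of cells that express a gene and a change in the RNA per cell cannot be told apart.

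Other cell type markers moved on the same arrays. The mean over the endothelial markers Cdh5, Tek, Kdr and Pecam1 was 10.19 to 10.69 on uninduced and 12.13 to 12.50 on induced myeloid progenitor arrays, with all 4 well above background throughout and 3 of 4 called up. The mean over 5 mast cell markers was 7.20 to 7.57 and 8.44 to 9.40, with 1 of the 5 well above background on no uninduced array. Of these, Hdc (group means 8.34 and 13.77) and Cpa3 (7.32 and 10.59) were called up, Gzmb (9.39 and 7.32) was called down, and Mcpt4 (6.33 and 6.10) and Cma1 (5.33 and 6.38) were not called. Hdc was also called up with Dox in HE (9.23 and 14.54), HE2 (7.97 and 13.44) and progenitors (9.16 and 13.41). Cpa3 was called up in HE (5.31 and 6.64) and progenitors (8.03 and 10.31) too, so that these shifts were not particular to myeloid progenitors. The mean over 7 megakaryocyte markers was lower with Dox, at 13.14 to 13.48 and 12.10 to 12.28. That over 6 myeloid markers was lower too, at 10.48 to 10.85 and 10.01 to 10.27, with none of them called. That over 4 haematopoietic markers was 11.455 to 12.08 and 10.85 to 11.35. The mean over 4 cardiac markers was higher with Dox, at 6.38 to 6.59 and 7.16 to 7.43, with 2 of the 4 well above background on no uninduced array. The part of all these markers in the Gfi1 result was not tested.

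At the earlier stages, no Gfi1 response was called. In HE, uninduced arrays read 10.86, 11.59 and 10.43 and induced arrays 10.10, 10.86 and 10.04, with overlap between the groups. The difference was -0.62 ± 0.41 (adjusted P = 0.377, 95% interval -1.48 to 0.24), and it was -1.13 within slide 1 and 0.02 within slide 2. In HE2, uninduced arrays read 11.03, 11.39 and 11.46 and induced arrays 11.36, 12.12 and 11.80, which again overlapped, for a difference of 0.46 ± 0.41 (adjusted P = 0.507, interval -0.40 to 1.32). In progenitors, the groups no longer overlapped: uninduced arrays read 9.71 and 9.03, the technical replicate 9.54, and induced arrays 10.91 and 11.23. The difference of 1.70 ± 0.50 (adjusted P = 0.0561) was not called, and on slide 1, which held 1 array of each, it was 1.19. On slide 3, the induced array read 11.23 and the technical replicate 9.54. The progenitor difference was called when the early stages were normalized without the myeloid arrays (1.74, adjusted P = 0.0276). With slide as a block it was 1.52 (adjusted P = 0.367).

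Gfi1b had no called response to Dox at any stage. In HE, uninduced arrays read 10.87, 11.02 and 9.62 and induced arrays 10.25, 11.11 and 10.47, a difference of 0.10 ± 0.30 (adjusted P = 0.89). The signs within slides were opposed, at -0.70 on slide 1 and 1.17 on slide 2. In HE2, uninduced arrays read 12.98, 13.12 and 13.29 and induced arrays 12.57, 13.11 and 13.35, which overlapped. The difference was -0.12 ± 0.30 (adjusted P = 0.846, interval -0.75 to 0.51). In progenitors, uninduced arrays read 13.67 and 13.99, the technical replicate 13.83, and induced arrays 14.33 and 14.63. The induced arrays were both higher, and the difference of 0.65 ± 0.37 did not pass (adjusted P = 0.341, interval -0.12 to 1.42). In myeloid progenitors, where Gfi1 rose 9.34-fold, uninduced arrays read 14.23, 14.23 and 14.43 and induced arrays 14.49, 14.34 and 14.28 for Gfi1b. The ranges overlapped, with a difference of 0.08 ± 0.30 (adjusted P = 0.94, interval -0.56 to 0.71), and the upper end of that interval is below a 2-fold change.

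The letters upstream of the start sites of the 2 repressor genes are shown because these genes alone had called changes. They are the 250 bases before the start as RefSeq places it on GRCm38.p6, in lower case, with any match to the motifs searched in capitals.
Gfi1b, chr2:28621983-28622232, minus strand: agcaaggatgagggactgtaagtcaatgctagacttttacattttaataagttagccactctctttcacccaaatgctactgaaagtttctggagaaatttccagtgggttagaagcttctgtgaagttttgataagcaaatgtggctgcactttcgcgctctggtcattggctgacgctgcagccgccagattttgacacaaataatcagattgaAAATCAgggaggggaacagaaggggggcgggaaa
Gfi1, chr5:107725806-107726055, minus strand: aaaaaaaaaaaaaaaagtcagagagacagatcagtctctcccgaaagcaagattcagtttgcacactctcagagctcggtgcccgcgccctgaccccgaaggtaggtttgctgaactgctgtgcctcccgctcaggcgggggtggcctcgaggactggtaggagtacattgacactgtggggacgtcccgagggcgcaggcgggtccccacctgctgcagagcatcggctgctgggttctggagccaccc
Motifs of 6 letters were searched on both strands: TGTGGT of RUNX factors, AGATAA of GATA factors, CCGGAA of ETS factors and AAATCA of GFI1 and GFI1B. The Gfi1b sequence held 1 match, AAATCA from 34 to 29 bases before the start on the strand of the gene, which overlapped no other match, and AAATCA stands in 12.4% of all 32851 promoter windows of this length. The Gfi1 sequence, that of its other listed start 1462 bases away, and those of Kdm1a and Rcor1 held 0 matches, where TGTGGT stands in 14% of windows, AGATAA in 9.99% and CCGGAA in 12%. Of the bases shown, 44.4% were G or C for Gfi1b and 59.2% for Gfi1. A match of 6 letters describes the window and is no evidence of a bound site, and enhancers lie outside these windows. Other spellings of these motifs were not searched and stay in lower case, so that a window without a match may still hold one.

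Kdm1a, the demethylase, had no called change in any comparison. In HE, it read 13.87, 13.67 and 14.32 without and 14.26, 13.66 and 13.79 with Dox. In HE2, it read 13.86, 13.80 and 14.26 without and 13.88, 14.35 and 13.96 with Dox. These groups overlapped, and the differences were -0.05 ± 0.20 (adjusted P = 0.931) and 0.09 ± 0.20 (adjusted P = 0.824). In progenitors, uninduced arrays read 13.58 and 13.73 and induced arrays 13.97 and 13.66, for 0.16 ± 0.25 (adjusted P = 0.772). In myeloid progenitors, uninduced arrays read 13.13, 13.41 and 13.19 and induced arrays 13.48, 13.49 and 13.60, which did not overlap, for 0.28 ± 0.20 (adjusted P = 0.452). All 4 intervals lay within a 2-fold change either way, with the widest bounds at -0.47 and 0.70.

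Rcor1, the scaffold that holds LSD1 to chromatin, had a higher mean with Dox at each stage by its brighter probe, and no difference was called. In HE, it read 13.06, 13.37 and 13.51 without and 13.54, 13.48 and 13.86 with Dox, an overlap, for 0.31 ± 0.16 (adjusted P = 0.224). In HE2, it read 12.86, 13.15 and 12.96 without and 13.32, 13.30 and 13.71 with Dox, for 0.46 ± 0.16 (adjusted P = 0.0582). The HE2 groups did not overlap. In progenitors, it read 12.79 and 12.89 without Dox, 12.82 on the technical replicate, and 13.34 and 13.52 with Dox, for 0.59 ± 0.20 (adjusted P = 0.091). In myeloid progenitors, it read 13.57, 13.44 and 13.44 without and 13.71, 13.86 and 13.79 with Dox, for 0.31 ± 0.16 (adjusted P = 0.25). The difference was above 0 in each of the 6 within-slide comparisons, from 0.16 to 0.55, and under 2-fold in all of them. The other Rcor1 probe, dimmer at group means of 7.68 to 8.97, gave differences of -0.18, 0.30, 0.99 and 0.18 in the order of the stages, and none of these was called (lowest adjusted P = 0.302), so that the sign in HE depended on the probe.

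Against all genes tested, 0 of 4 members were called with Dox in HE, where 7.09% of genes were called, 0 of 4 in HE2 (7.22%), 0 of 4 in progenitors (3.73%) and 1 of 4 in myeloid progenitors (6.31%). The median change over all genes was between -0.04 and -0.01 in these comparisons.

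**Figure D2:**
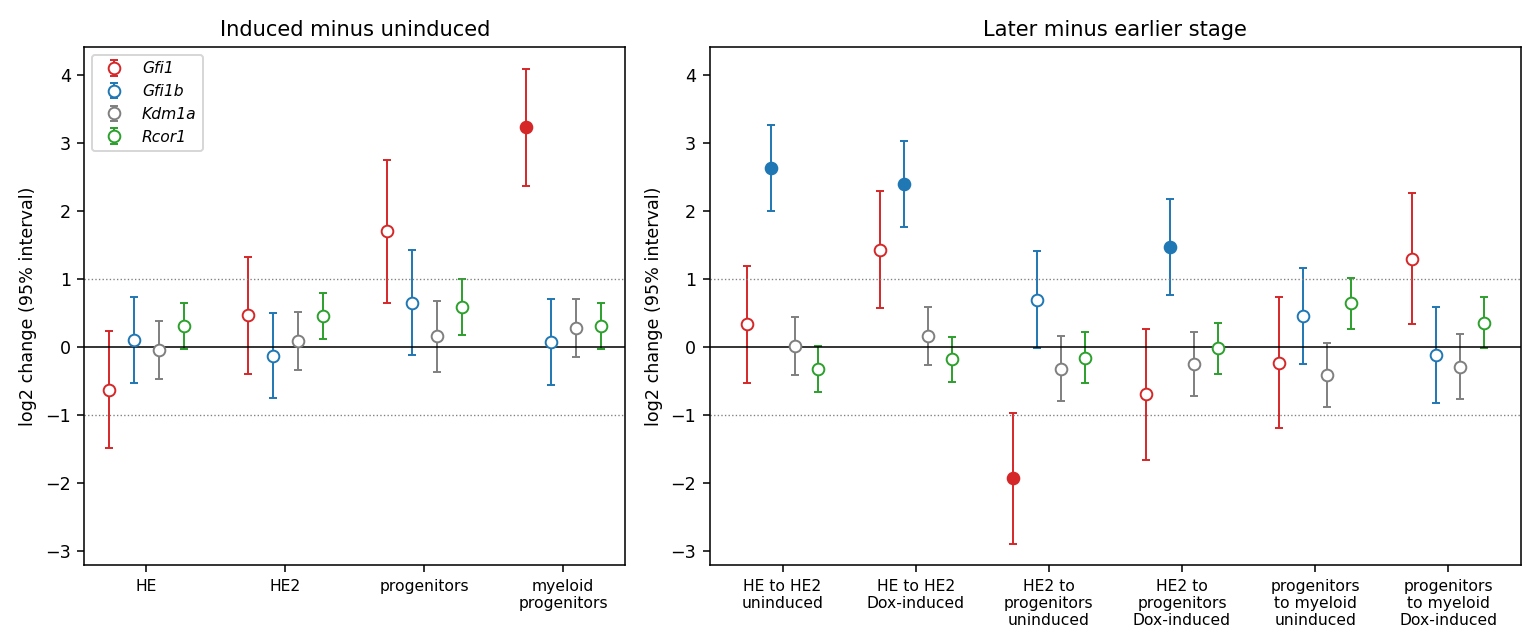
Log2 change of the 4 genes (y axis, with 95% intervals) for induced minus uninduced cells (left) and for the later minus the earlier stage (right), with comparisons on the x axis, filled points for called changes and dotted lines at a 2-fold change. Filled points are Gfi1 with Dox in myeloid progenitors at 3.22 and from uninduced HE2 to progenitors at -1.92, and Gfi1b from HE to HE2 at 2.63 and 2.40 and from induced HE2 to progenitors at 1.47.

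Across development, Gfi1b made the largest step of the 4 members in log2 change, from HE to HE2, and it made it in uninduced and in induced cells. Without Dox, the HE arrays at 9.62 to 11.02 lay below the HE2 arrays at 12.98 to 13.29. Gfi1b rose by 2.63 ± 0.30, or 6.18-fold (adjusted P = 1.61e-05), by 2.11 within slide 1 and by 3.67 within slide 2. With Dox, the HE arrays at 10.25 to 11.11 lay below the HE2 arrays at 12.57 to 13.35, and the rise was 2.40 ± 0.30, or 5.28-fold (adjusted P = 8.52e-05), with 2.32 within slide 1 and 2.44 within slide 2. The difference between these rises was -0.23 ± 0.42 (adjusted P = 0.989, interval -1.12 to 0.66). Both rises were called in all 6 fits that left out 1 array, at 2.19 to 2.88 and 2.22 to 2.65.

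Blood cell markers moved with the same step. Without Dox, the mean over 7 megakaryocyte markers was 8.17 to 8.63 in HE and 9.99 to 10.64 in HE2, and that over 4 haematopoietic markers 8.04 to 8.39 and 9.58 to 10.11, where Itga2b encodes CD41, by which HE2 was sorted. The mean over 7 erythroid markers was 9.56 to 9.80 and 9.94 to 10.59, with 1 of the 7 not well above background on any HE array. Their part in the Gfi1b result was not tested. Of the 4 members, 1 was called from HE to HE2 without Dox, where 5.07% of all genes were called, and 1 with Dox, where 3.1% were called.

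For Gfi1, no change was called at this step. From HE to HE2 its difference was 0.34 ± 0.41 without Dox (adjusted P = 0.719), with overlapping arrays, and -0.01 within slide 1 and 1.03 within slide 2. With Dox the arrays did not overlap, and the difference of 1.43 ± 0.41 was not called (adjusted P = 0.0474). The difference between these 2 values was 1.09 ± 0.58 (adjusted P = 0.676). Kdm1a differed by 0.02 without and 0.16 with Dox, and Rcor1 by -0.32 and -0.18, none of them called.

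From HE2 to progenitors, Gfi1 was called down in uninduced cells and Gfi1b up in induced cells. Gfi1 fell by 1.92 ± 0.46 without Dox, or 3.8-fold, from 11.03 to 11.46 down to 9.71 and 9.03 (adjusted P = 0.0106). The change was -1.502 within slide 1 and -2.43 within slide 2. This call was a narrow one: without uninduced HE2 array 2 or 3 the change was -1.88 and -1.84, and without uninduced progenitor array 1 or 2 it was -2.27 and -1.58, none of which was called (adjusted P from 0.0257 to 0.18). With slide as a block it was -1.92 and not called either (adjusted P = 0.0184). With Dox, the difference in Gfi1 was -0.69 ± 0.46 (adjusted P = 0.362), with no overlap between arrays, and the difference between the induced and uninduced changes was 1.23 ± 0.65 (adjusted P = 0.668).

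Gfi1b rose from HE2 to progenitors with Dox by 1.47 ± 0.33, or 2.77-fold, from 12.57 to 13.35 up to 14.33 and 14.63 (adjusted P = 0.0055). It was not called without induced HE2 array 1 (1.25), without induced progenitor array 1 (1.63) or 2 (1.32), or with slide as a block (1.37, adjusted P = 0.0887). Where a progenitor array was left out, the single array left was assumed to vary like the other groups. Without Dox, Gfi1b differed by 0.70 ± 0.33 (adjusted P = 0.281), with all progenitor arrays above all HE2 arrays. Along with it, the erythroid markers went from 9.94 to 10.59 up to 11.71 to 11.89 without Dox, and from 11.62 to 12.02 up to 13.55 to 13.96 with Dox, and their part was not tested. Kdm1a and Rcor1 were not called, with differences from -0.32 to -0.02, and the other Rcor1 probe had the opposite sign, at 0.26 without and 0.96 with Dox, and was not called either. Thus 1 of 4 members was called without Dox, where 5.39% of all genes were called, and 1 of 4 with Dox, where 7.36% were called.

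Between progenitors and myeloid progenitors, 0 of 4 members were called without Dox, where 13.9% of all genes were called, and 0 of 4 with Dox, where 7.37% were called. Gfi1 differed by -0.23 ± 0.46 without Dox (adjusted P = 0.734) and by 1.298 ± 0.46 with Dox (adjusted P = 0.0569). Gfi1b differed by 0.46 ± 0.33 (adjusted P = 0.306) and -0.11 ± 0.33 (adjusted P = 0.866). Rcor1 was higher in uninduced myeloid progenitors by 0.65 ± 0.18 (adjusted P = 0.00989), without overlap and short of 2-fold, and Kdm1a was lower by 0.41 ± 0.23 (adjusted P = 0.176). Uninduced progenitors in the fit shared no slide with myeloid progenitors, so that no difference within a slide could be given from fitted arrays. The technical replicate on slide 3 read 9.54 for Gfi1, 13.83 for Gfi1b, 13.61 for Kdm1a and 12.82 for Rcor1. The uninduced myeloid progenitor means on that slide were 9.14, 14.29, 13.245 and 13.48.

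Whether the response to Dox itself differed between stages was tested as an interaction. For Gfi1, the response in myeloid progenitors exceeded that in HE by 3.85 ± 0.58 (adjusted P = 0.000425), with an interval from 2.63 to 5.06, and this was 1 of 4 members called where 4.72% of all genes were called. In HE the induced and uninduced arrays overlapped, with differences of -1.13 within slide 1 and 0.02 within slide 2. In myeloid progenitors all induced arrays were above all uninduced ones. The steps between neighbouring stages were 1.09 ± 0.58 from HE to HE2 (adjusted P = 0.676), 1.23 ± 0.65 from HE2 to progenitors (adjusted P = 0.668) and 1.53 ± 0.65 from progenitors to myeloid progenitors (adjusted P = 0.33). None of these was called, nor was any of the other members (0 of 4 each, where 1.34%, 0.645% and 1.5% of genes were called). For Gfi1b, the response in myeloid progenitors differed from that in HE by -0.03 ± 0.42 (adjusted P = 0.995), for Kdm1a by 0.33 ± 0.29 (adjusted P = 0.735) and for Rcor1 by -0.01 ± 0.23 (adjusted P = 0.997).

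In order of group means, Gfi1 was highest in induced myeloid progenitors (12.37 ± 0.96, SD, n = 3), followed by induced HE2 (11.76 ± 0.38), uninduced HE2 (11.29 ± 0.23), induced progenitors (11.07 ± 0.23, n = 2), uninduced HE (10.96 ± 0.59), induced HE (10.33 ± 0.46), uninduced progenitors (9.37 ± 0.48, n = 2) and uninduced myeloid progenitors (9.14 ± 0.52). Arrays of all neighbours in this order overlapped, apart from induced HE and uninduced progenitors. Gfi1b was highest in induced progenitors (14.48 ± 0.22, n = 2) and lowest in uninduced HE (10.51 ± 0.77), and in its order the breaks without overlap lay below uninduced myeloid progenitors (14.29 ± 0.12), below uninduced progenitors (13.83 ± 0.23) and below induced HE2 (13.01 ± 0.40). Kdm1a ran from 14.06 ± 0.25 in induced HE2 to 13.24 ± 0.15 in uninduced myeloid progenitors, and Rcor1 from 13.79 ± 0.08 in induced myeloid progenitors to 12.84 ± 0.07 in uninduced progenitors. Across the 8 group means, Gfi1 and Gfi1b had a Pearson r of 0.001 with each other, Kdm1a had 0.469 with Gfi1 and -0.577 with Gfi1b, and Rcor1 had 0.407 with Gfi1 and -0.047 with Gfi1b.

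Among the genes whose group means were most like those of each member, by Pearson r over the 8 groups out of 15201 genes, were Cnrip1 (0.969), Lyve1 (0.94), Sos2 (0.921) and Trim47 (0.912) for Gfi1. Lyve1, a hyaluronan receptor of lymphatic and early embryonic endothelium, went from 7.29 to 12.33 with Dox in myeloid progenitors, and Cnrip1, which binds the cannabinoid receptor, from 10.25 to 12.96. For Gfi1b they were Ikzf2 (0.991), Ptpn7 (0.99), Cep70 (0.988), Inpp5d (0.988) and Trmt2b (0.987). Ikzf2, which encodes the lymphoid factor Helios, rose from 8.22 in uninduced HE to 10.53 in uninduced HE2, and Inpp5d, which encodes the blood cell phosphatase SHIP1, from 11.15 to 12.65. For Kdm1a they were Leprotl1, Acr, Fam53c, Has2os and Zbtb2 (0.978 to 0.983), and for Rcor1 they were Agrn, Bik, Fam214b, Ddb1 and Tsg101 (0.972 to 0.988). These are the highest of 15201 correlations over 8 points each and carry no test.

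Endothelial genes, which GFI1 and GFI1B are known to shut down in the EHT, were called with Dox in 1 direction. The list of these genes was drawn up with earlier results of these data known. Of 16 genes listed, among them the 4 endothelial markers above, HE had 2 called up, HE2 had 7, progenitors had 6 and myeloid progenitors had 13, with 0 called down at any stage. Of all 15202 genes, 714, 786, 460 and 780 were called up in these comparisons, and 7.09%, 7.22%, 3.73% and 6.31% were called in either direction. The median changes were 0.32, 1.25, 1.32 and 2.46, against -0.01, -0.03, -0.04 and -0.02 over all genes. In HE the list was mixed. Cdh5 (-0.728), Sox7 (-0.695), Sox17 (-0.526), Sox18 (-0.369) and Pecam1 (-0.125) were below 0 there and not called, and the other listed genes were above 0. Without Dox, 5 of the 16 were called down from HE to HE2 (median -1.02, all genes 0.03, with 5.07% of all genes called), the step at which Gfi1b rose. With Dox, where Gfi1b rose at this step as well, 0 of the 16 were called down and 1 up. The median was then 0.033 (all genes 0.015, with 3.1% of all genes called).

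Named by the smallest P, Robo4, a guidance receptor that stabilizes vessels, rose by 1.72, 2.64, 3.09 and 3.35 from the first stage to the last, and the tight junction gene Cldn5 by 2.34 in HE, 3.20 in HE2 and 4.02 in progenitors. Sox7, a SOX factor of haemogenic endothelium, rose by 3.57 in progenitors. In myeloid progenitors, the Lyve1 rise of 5.04 ± 0.32 (adjusted P = 1.09e-08) had the smallest P of the list, followed by Robo4 and Ets1 (2.67). From uninduced HE to HE2, Sox7 fell by 1.81, Sox17 fell by 1.67 and Robo4 fell by 1.62. Without uninduced HE array 3 or uninduced HE2 array 2, 3 of the 16 were called at this step, and without uninduced HE array 2 or induced HE array 1 or 3, 1 of 16 was called with Dox in HE. Gfi1 and 13 of 16 endothelial genes were thus higher on the same induced myeloid progenitor arrays, and the share of endothelial cells on those arrays was not measured here.

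**Figure D3:**
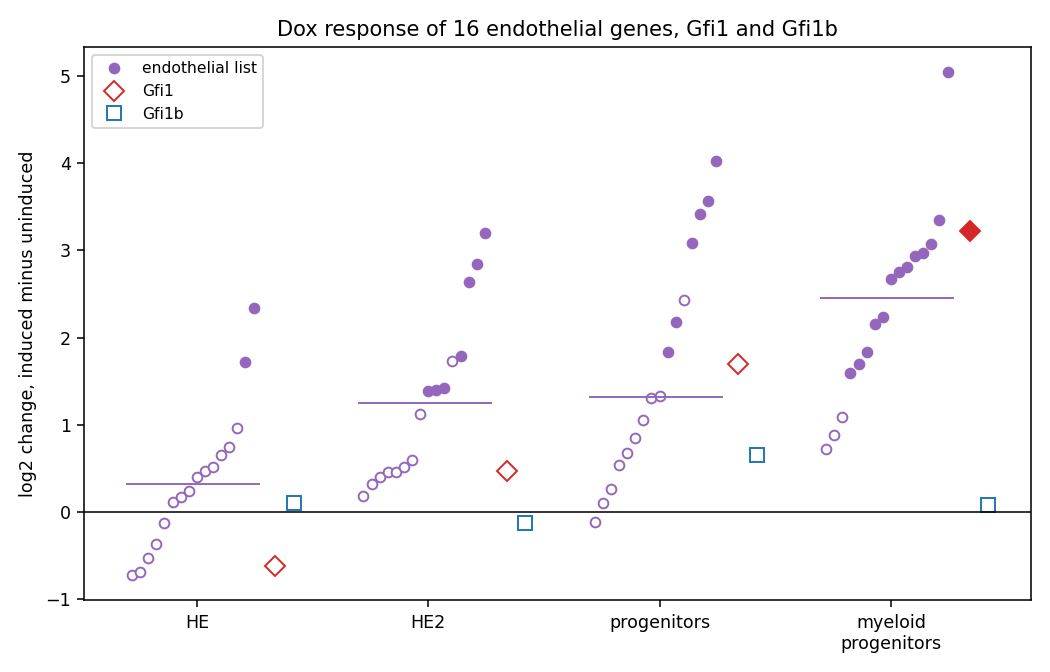
Log2 change with Dox (y axis) of the 16 endothelial genes (circles, with a line at their median), Gfi1 (diamonds) and Gfi1b (squares) at the 4 stages (x axis), filled where called. The medians of the list were 0.32, 1.25, 1.32 and 2.46 and the Gfi1 values -0.62, 0.46, 1.70 and 3.22 in the order of the stages, while Gfi1b lay between -0.12 and 0.65.

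Of 12 known activators of Gfi1 and Gfi1b in blood cells, 1 was called up and 1 down with Dox in HE, 2 up and 2 down in HE2, 1 up and 1 down in progenitors and 3 up and 0 down in myeloid progenitors, where the shares of all genes called in either direction were 7.09%, 7.22%, 3.73% and 6.31%. In HE, the LIM-domain bridging factor Lmo2 rose by 1.06 and the bHLH factor Lyl1 fell by 2.498. In HE2, Fli1, an ETS factor of endothelium and megakaryocytes, rose by 1.41 and the erythroid factor Gata1 by 2.07, while Spi1, which encodes the myeloid factor PU.1, fell by 2.73 (2 of 3 induced arrays well above background) and Lyl1 fell by 1.43. In progenitors, Fli1 rose by 1.58 and Spi1 fell by 2.23. In myeloid progenitors, where Gfi1 rose, Fli1 rose by 1.29, its relative Erg by 2.08 and the stem cell factor Gata2 by 1.26. Spi1 differed by -1.389 there (adjusted P = 0.0151) and was not called. Without uninduced HE array 3 or induced HE array 1, 1 of the 12 was called in HE, and without uninduced progenitor array 1 or induced progenitor array 2, 1 was called in progenitors. Runx1 itself was not called with Dox at any stage, with differences from -0.29 to 0.75. From uninduced HE to HE2, where 5.07% of all genes were called, 5 of 12 were called up, among them Myb by 3.07, Spi1 by 3.29 (2 of 3 HE arrays well above background) and Gata1 by 2.84.

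Among 16 other genes of the LSD1–CoREST machinery, 1 was called with Dox in HE and 1 in HE2, where 7.09% and 7.22% of all genes were called. Of those listed (further CoREST proteins, histone deacetylases, HMG20 proteins, PHF21A, ZMYM proteins, CTBP proteins and others), Gse1, a CoREST-associated protein, was called down in HE, from 7.14 to 5.56, and in HE2, from 8.29 to 6.89, and no other gene was called with Dox. Only 1 of 3 induced HE arrays had Gse1 well above background, and the count was 0 in HE without uninduced HE array 1 or 3 or induced HE array 2, and 0 in HE2 without array 1 or 3 of either group. The list's medians were -0.01, 0.04, 0.14 and 0.17. Of the other SNAG-domain repressors, 6 of 8 passed the filter on low values, and Snai3 and Ovol1 did not. Insm1, a neuroendocrine SNAG repressor, rose with Dox by 1.98, 2.72, 2.96 and 2.74 from HE to myeloid progenitors, and its relative Insm2 by 1.81 in HE and 1.66 in HE2. In myeloid progenitors, Insm2 was not well above background on any uninduced array, and was at least 2.63-fold higher with Dox. Without uninduced HE array 1 or 3 or induced HE array 2 or 3, 1 of the 6 was called in HE, and without uninduced progenitor array 2 it was 0 in progenitors. From uninduced HE to HE2, 0 genes of either list were called, and 1 SNAG gene without uninduced HE2 array 2.

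Among 17 tested genes that GFI1 or GFI1B is known to repress in blood cells, 1 was called up and 1 down with Dox in HE, 2 up and 2 down in HE2, 2 up and 0 down in progenitors and 2 up and 0 down in myeloid progenitors. Of all genes, 7.09%, 7.22%, 3.73% and 6.31% were called at these stages. Hoxa9, the other gene listed, did not pass the filter on low values. In HE, the interferon factor gene Irf8 rose by 1.52 and the cytokine gene Csf1 fell by 1.79. In HE2, the TGF-beta co-receptor gene Tgfbr3 rose by 1.56 and Egr2 by 1.41, while the macrophage receptor gene Csf1r fell by 1.76 and Rgs18, a regulator of G-protein signalling in platelets, fell by 1.098 with overlapping arrays. Tgfbr3 rose again in progenitors by 2.12, beside Meis1 by 1.53, and in myeloid progenitors by 1.63, beside Socs1, a brake on cytokine signalling, by 1.44. From uninduced HE to HE2, where 5.07% of all genes were called, 2 of the 17 were called up and 0 down. Irf8 rose by 1.00, and Rgs18, not well above background on any uninduced HE array, was at least 7.25-fold higher in HE2. With Dox in HE, 1 of the 17 was called without uninduced array 2 or 3 or induced array 1, and in HE2 it was 2 without induced array 3. In progenitors it was 1 without either uninduced array or without induced array 2, and in myeloid progenitors 1 without uninduced array 1 or 2 or any of the induced arrays. From uninduced HE to HE2 it was 1 without HE array 2 or 3 or HE2 array 1 or 3.

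**Figure D4:**
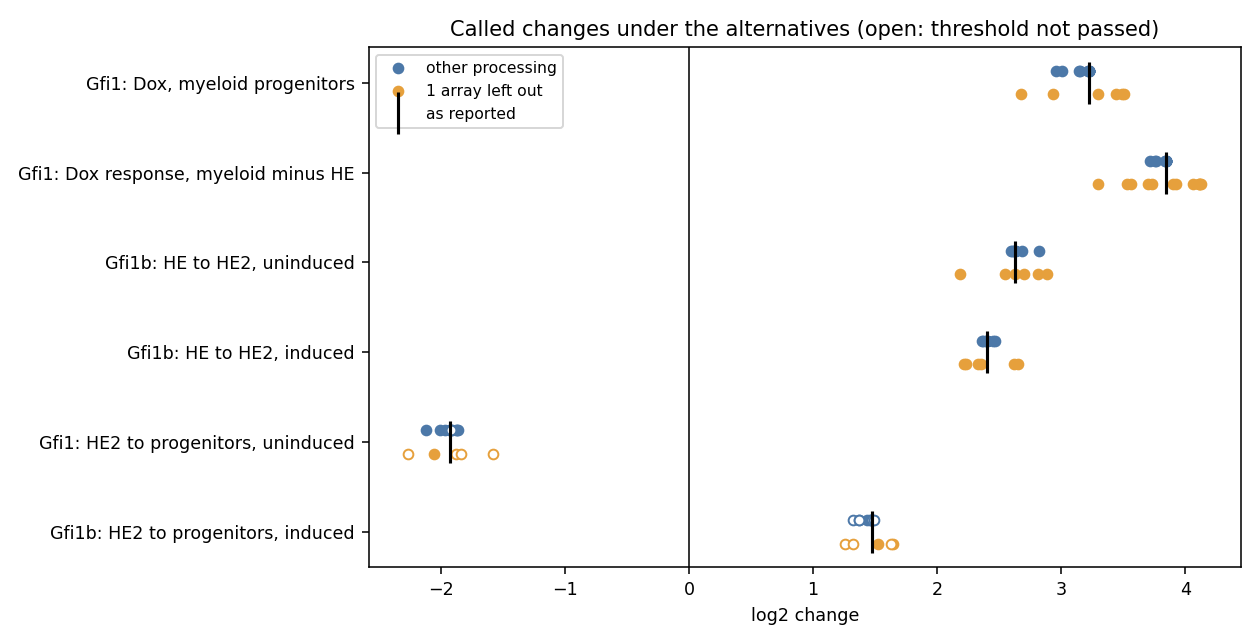
Log2 change (x axis) of the 6 called member results (y axis) as reported (black bar), under other processing (blue) and with 1 array left out (orange), with open points where the threshold was not passed. The upper 4 results were called throughout, at 2.67 to 3.51, 3.30 to 4.13, 2.19 to 2.88 and 2.22 to 2.65 with 1 array left out, and the lower 2 kept their sign and lost the call in several fits.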

How the data were processed

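RNA was hybridised in 1 colour (Cy3) to Agilent SurePrint G3 Mouse arrays. The files that the authors deposited give a median intensity and local background per spot from Feature Extraction (version 10.7.3.1 per the file headers, 10.7.1.1 in the submitters' processing notes), unnormalized, beside a set of log2 values which they had background-corrected and quantile normalized. The latter served as an alternative. In it, arrays 2 and 3 appear exchanged within 3 induced groups, which leaves group means as they were.

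The background was corrected with normexp (offset 16), 3671 control spots and outlier spots were left out, and 23 arrays were quantile normalized. Spots of a probe were averaged, and 26582 of 55681 probes were named through RefSeq accessions (GRCm38.p6, used for names only, since the array was annotated on another build). The brightest probe stood for a gene, and genes reaching 6.5 on at least 1 array were tested with lmFit and eBayes (limma 3.58.1, R 4.3.3, files read with data.table, version 1.17.8) on 22 arrays with 14 residual degrees of freedom. Calls needed an unadjusted P of at most 0.001 and 2-fold, and printed P values were adjusted over all genes tested (Benjamini-Hochberg). No column of values was without a sample (0 left out). The fit was tested on simulated data. P values rest on arrays labelled as replicates and their number limits precision. Uninduced HE and HE2 arrays of the same replicate number deviated together (correlations of 0.394, 0.797 and 0.61 across genes) and were taken as paired in an alternative fit.

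The members and lists were chosen with earlier results of these data known. Named are all members, Runx1t1 and Runx1, up to 3 called genes per list and direction by P, and the 5 genes most like each member, of which 1 is not reported here. Promoters come from RefSeq (4 of 4 members matched). Alternatives changed the background correction, scaling, filter, probe, threshold, groups fitted, slide, scan day, replicate block and arrays.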

Additional observations from a re-analysis of the deposited data

Results flagged for a closer look

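The response to Dox differed between stages, by the interaction term of the limma fit, for the results given here, with P values adjusted over all 15202 genes and differences on the log2 scale. For Gfi1, the response in myeloid progenitors exceeded that in HE by 3.848 ± 0.578 (SE, adjusted P = 0.000425). Among the activators, the Erg response in myeloid progenitors exceeded that in HE by 1.949 (adjusted P = 0.00976). The Lyl1 change was -2.498 in HE and -0.597 in myeloid progenitors, where it was not called. The Lyl1 difference of 1.901 (adjusted P = 0.00231) is thus a smaller negative change. The Spi1 response in HE2 (-2.732) was below that in HE (-0.297, not called), with a difference of -2.435 (adjusted P = 0.0297). Uninduced HE had a mean Spi1 level of 5.47, with 2 of 3 arrays well above background. Little room was left there for a fall to be measured.

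Endothelial genes were among them too. The response in myeloid progenitors exceeded that in HE by 2.212 for Ets1, 2.528 for Sox7, 4.646 for Lyve1 and 3.28 for Sox17, with adjusted P values from 1.08e-05 to 0.00182. For Lyve1 it also exceeded that in progenitors by 3.988 (adjusted P = 0.00061). The Sox7 response was higher in progenitors than in HE2 by 2.978 (adjusted P = 0.0143), and the Sox17 response higher in HE2 than in HE by 1.947 (adjusted P = 0.0342).

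Of the genes repressed by GFI1 or GFI1B, the difference between myeloid progenitors and HE was -2.477 for Irf8 (adjusted P = 0.000273) and 2.161 for Socs1 (adjusted P = 0.0137). The Irf8 change was 1.518 in HE and -0.958 in myeloid progenitors, where it was not called. The Socs1 change was -0.721 in HE, where it was not called, and 1.44 in myeloid progenitors. Myeloid progenitors also differ from the other stages in the day on which Dox was started. Apart from 1 induced progenitor array and the technical replicate, they differ in slide too. The part of the day of Dox was not tested. For Gfi1, the other processing tried included slide as a block, and its difference was called each time, at 3.715 to 3.848. For the other genes here, the part of slide was not tested.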

How the results depend on the processing

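None of the called results of the members changed sign. The Gfi1 rise with Dox in myeloid progenitors (2.956 to 3.224), its excess over HE (3.715 to 3.848) and the Gfi1b rises from HE to HE2 (2.594 to 2.822 and 2.362 to 2.465) were called under every other processing tried and with any 1 array left out (2.673 to 3.506, 3.296 to 4.13, 2.186 to 2.884 and 2.219 to 2.651). The Gfi1 fall from HE2 to progenitors without Dox ran from -2.265 to -1.584 with 1 array left out, and with slide as a block it was -1.921 and not called. The Gfi1b rise from HE2 to progenitors with Dox ran from 1.253 to 1.641, and it was not called after 75th percentile scaling (1.372), with stages normalized apart (1.491), in a fit of the groups compared alone (1.472), with slide (1.369) or scan day (1.318) as a block.

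Normalized apart, Gfi1 was called with Dox in progenitors (1.739) and from HE to HE2 with Dox (1.456). At an adjusted P of 0.05 with no fold threshold, the latter (1.426) and Rcor1 from uninduced progenitors to myeloid progenitors (0.645) were called. By a 2-fold change alone, Gfi1 was past the threshold at 1.697, 1.426, 1.298 and, for differences of response between neighbouring stages, 1.088, 1.234 and 1.527. With the replicate number as a block, which pairs uninduced HE and HE2 arrays, the Gfi1b rise was 2.627, and the block changed no call of a member. In that pairing, the count of repressed targets called went from 2 to 1.

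The short lists' counts moved more. Over the Dox comparisons from HE to myeloid progenitors and then uninduced HE to HE2, other processing gave 0 to 2, 0 to 3, 0 to 1, 0 to 3 and 0 to 3 CoREST genes, 0 to 2, 1 to 2, 0 to 3, 1 to 2 and 0 to 2 SNAG genes, 1 to 4, 4 to 5, 0 to 3, 3 to 4 and 4 to 6 activators, 1 to 2, 6 to 9, 5 to 10, 13 to 14 and 2 to 9 endothelial genes, and 2 to 3, 2 to 9, 1 to 4, 1 to 6 and 1 to 4 repressed targets, of which 8 and 9 were reached in HE2 without the fold or the P threshold. With 1 array left out, the same counts were 0 to 1, 0 to 1, 0, 0 and 0, then 1 to 2, 2, 0 to 1, 2 and 0 to 1, then 1 to 3, 4 to 5, 1 to 2, 2 to 3 and 4 to 5, then 1 to 2, 5 to 7, 5 to 7, 11 to 13 and 3 to 5, then 1 to 3, 2 to 3, 1 to 2, 1 to 2 and 1 to 3. The causes were not tested.

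Scaling to the 75th percentile moved the median of all genes by -0.181 with Dox in progenitors, -0.105 with Dox in myeloid progenitors and -0.189 and -0.101 from progenitors to myeloid progenitors. It moved the share of calls that were up from 47.3 to 61.2% from HE to HE2 without Dox, from 52.4 to 67.5% with Dox, and from 50.2 to 37.4% from uninduced progenitors to myeloid progenitors. Over all genes, slide as a block lowered the calls from 567 to 331 with Dox in progenitors, from 1119 to 741 from HE2 to progenitors with Dox, and from 2118 to 574 from uninduced progenitors to myeloid progenitors, and scan day as a block gave 349 for the first and 582 for the last. Uncalled differences of members changed sign under some settings, among them Gfi1b with Dox in myeloid progenitors (-0.087 to 0.078), Kdm1a with Dox in HE2 (-0.076 to 0.094) and progenitors (-0.145 to 0.402), and Rcor1 with Dox in HE (-0.176 to 0.318) and from HE2 to progenitors without Dox (-0.216 to 0.263) and with Dox (-0.252 to 0.96). Groups of 2 or 3 arrays limit all of these results.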
